A study of Homo sapiens with 16 samples.

Results

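This comparison sets 2 groups of U2OS cells, a human osteosarcoma line, side by side: cells transfected with small interfering RNA against MYBL1 (siMYBL1, 2 libraries) and cells transfected with a non-targeting siRNA (siCtrl, 2 libraries), which together are 4 of the 16 libraries of the series. Cells of both groups were taken 48 hours after transfection, and the paralogue MYBL2 was targeted in neither. The series asks what A-MYB (the product of MYBL1) and B-MYB (the product of MYBL2) do in the mitotic cell cycle, and it holds the same knockdowns in the colorectal carcinoma line HCT116. All 14763 genes in the authors' deposited table for this comparison were used. The series' design text calls the 2 libraries of a group biological replicates without saying what separated them. The errors can therefore speak only for variation between these libraries. Each group is 1 cell line, and the labels do not say how many siRNA sequences against MYBL1 were used.

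MYB proteins are transcription factors that bind DNA through a shared N-terminal domain. B-MYB is found in most dividing cells, where it joins the MuvB complex and helps switch on the genes of G2 and mitosis, while A-MYB is best known from the male germline and from some B cells. An siRNA is a short duplex whose guide strand directs the cleavage of a matching transcript. The first bases of a guide strand, its seed, can also pair with short matches in the 3′ untranslated regions (UTRs) of other transcripts and lower those, as a microRNA does.

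The deposited table gives for each gene a base mean (an average of normalized counts, taken here as that of the 4 libraries of the comparison), a log2 fold change of siMYBL1 over siCtrl, its standard error (SE) and a p-value adjusted by Benjamini-Hochberg from the authors' DESeq2 Wald test. Values per library were not analysed here, so the depth of each library is unknown. The SE is the only guide here to the spread between replicates, and is a fitted value rather than that spread itself. The level of each group given below was derived from the base mean and the fold change, and is called an implied level, in normalized counts; levels were not compared between genes. The header does not name the libraries averaged. Between this table and that of U2OS siMYBL2, which shares the siCtrl libraries, base means differed from their median ratio by 8.02% in the median gene of 12005, and implied siCtrl levels by 1.56%. The lowest base mean listed was 30.2, so genes under it are neither higher nor lower here. A gene was called higher or lower at an adjusted p under 0.05. By that rule 843 genes (5.71%) were called, of which 508 were higher (3.44%) and 335 lower (2.27%); 805 of the 843 code for proteins. Of the higher genes 29 had an implied siCtrl level under 30.2, and of the lower genes 9 an implied siMYBL1 level under it, so these were listed only through the group where they are high. The median log2 fold change of the called genes was 0.92 for the higher and -0.81 for the lower ones, and 0.02 over all listed genes. Of the genes called, 194 were higher and 100 were lower by 2-fold or more.

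The labelled cell line was checked against marker genes. In the deposited U2OS table the mesenchymal genes VIM (vimentin) and COL1A1 (type I collagen) had base means of 23722 and 26651, against 32.6 and 406 in the HCT116 table, which was normalized separately. The epithelial genes CDH1, ESRP1, KRT19 and GRHL2 were listed in HCT116 and not in U2OS. Of the bone genes, RUNX2 was listed in U2OS, with a base mean of 337, while SP7, IBSP and BGLAP were not. Of 16 blood cell markers 1 was listed, ITGAM, and PTPRC was not.

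The targeted transcript was lower. MYBL1 fell from an implied 254 to 129 normalized counts, at a log2 fold change of -0.98 in the authors' deposited table (SE 0.31, adjusted p = 0.0300). MYBL2 was not called, at a log2 fold change of -0.29 (SE 0.19, adjusted p = 0.449), nor was MYB, at 0.09 (SE 0.47, adjusted p = 0.965), both by the authors' deposited table. Among the 16 listed genes of the MYB family, the MuvB core and the DREAM complex that contains it, MYBL1, the siRNA's target, was the only one called (6.25%, against 2.27% of all genes lower). Of the 16, 11 lay below 0 and the median was -0.22. By unadjusted p under 0.05, 4 were lower, MYBL1 among them, and none higher. The others were RBL2 (-0.52, SE 0.20), LIN52 (-0.48, SE 0.22) and LIN9 (-0.49, SE 0.25), picked after their values were seen. FOXM1, a transcription factor that works with B-MYB and MuvB, had a deposited log2 fold change of -0.34 (SE 0.18) and was not called, nor were RBBP4 (-0.11), a core MuvB subunit, and TFDP1 (-0.25), an E2F partner.

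**Figure D1:**
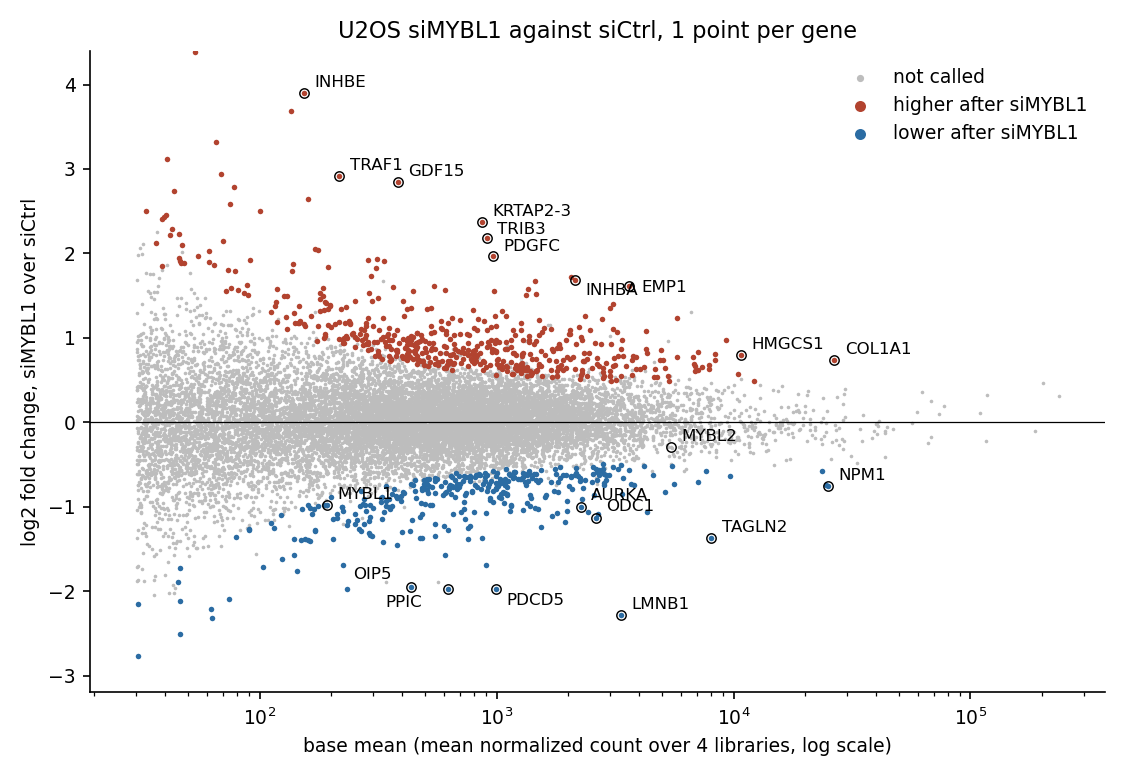
Log2 fold change of siMYBL1 over siCtrl (y axis) against base mean (x axis, log scale) for the genes in the authors' deposited U2OS table, 1 point per gene; red points were called higher, blue points lower, grey points neither. LMNB1 lies lowest of the labelled genes at -2.29 and INHBE highest at 3.90; H2AC19, at 23.52, and a few genes of low base mean lie above the axis.

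Among genes whose base mean reached 100, 16 were named for the size or the adjusted p of their fall. The 8 given first were taken from those that hold a run of bases shown after them, so they are not the 8 largest falls; the other 8 follow the sequences. For LMNB1 the authors' deposited table gave a log2 fold change of -2.29 (SE 0.18, adjusted p = 4.21e-34), an implied 5556 normalized counts in siCtrl against 1138 in siMYBL1. LMNB1 codes for lamin B1, a filament protein of the nuclear lamina, and its adjusted p was the smallest in the table. PPIC was lower after siMYBL1, at an implied 254 against 996 normalized counts (deposited log2 fold change -1.97, SE 0.21, adjusted p = 7.63e-17). PPIC is cyclophilin C, an enzyme that helps proteins fold. PDCD5, at an implied 1590.4 normalized counts in siCtrl and 405 in siMYBL1, had a deposited log2 fold change of -1.97 (SE 0.26, adjusted p = 3.19e-11). TAGLN2 lost normalized counts, from an implied 11643 to 4492 (deposited log2 fold change -1.37, SE 0.19, adjusted p = 5.54e-10). TAGLN2 is the actin-binding protein transgelin 2. Implied OIP5 levels were 691 normalized counts in siCtrl and 179 in siMYBL1 (deposited log2 fold change -1.95, SE 0.32, adjusted p = 6.36e-07). OIP5 is a subunit of the Mis18 complex, which loads the centromere histone. After siMYBL1, MPC2 stood at an implied 304 normalized counts against 908 in siCtrl (deposited log2 fold change -1.58, SE 0.25, adjusted p = 7.94e-08). MPC2 is a subunit of the mitochondrial pyruvate carrier. The implied USP46 level fell from 1099.7 normalized counts in siCtrl to 421 in siMYBL1 (deposited log2 fold change -1.38, SE 0.21, adjusted p = 2.41e-08). RCC2 fell from an implied 2694 to 1188 normalized counts, at a log2 fold change of -1.18 in the authors' deposited table (SE 0.17, adjusted p = 3.70e-09). USP46 is a deubiquitinase and RCC2 a mitotic regulator of chromosome passenger proteins.

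Of the 16 genes named for a fall, 11 share a run of 7 bases in their 3′ UTRs, 3 lack it and 2 were not searched; the run entered no rule by which they were named. The 7-mer was chosen in the other cell line, in HCT116 cells given siMYBL1. There the log2 fold change was fitted on the presence of each of all 16384 7-mers in the 3′ UTR. Of these 5′-GAACTTA-3′ had the lowest coefficient over its standard error. That coefficient was -0.12 over 10631 genes, after UTR length and GC content. The U2OS table was then read for that 7-mer. Here are 29 bases around the match in each of the 8 genes just described, on the transcript strand from 5′ to 3′, with the 7-mer in capitals, from hg38 with the GENCODE release 29 annotation, shown because most of the genes named for a fall hold this run.
LMNB1, chr5:126836469-126836497, plus strand: ttattgacactGAACTTAataactgtgta
PPIC, chr5:123023651-123023679, minus strand: ttagggactttGAACTTAaatatatcccc
PDCD5, chr19:32587311-32587339, plus strand: ctcacagactaGAACTTAacggaacaagt
TAGLN2, chr1:159918337-159918365, minus strand: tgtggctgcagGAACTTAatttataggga
OIP5, chr15:41309523-41309551, minus strand: atttgccttaaGAACTTActttagattct
MPC2, chr1:167918121-167918149, minus strand: catgacttaagGAACTTAtctatggatat
USP46, chr4:52596071-52596099, minus strand: tttattgctcaGAACTTAagtaagcatgc
RCC2, chr1:17407759-17407787, minus strand: agatgggactaGAACTTAagtgtgagact
The matches sit at different distances from the stop codon and their flanking bases differ. An A follows the 7-mer in LMNB1, PPIC, PDCD5, TAGLN2, USP46 and RCC2, a C in OIP5 and a T in MPC2.

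Over the whole U2OS comparison, as a description, genes with the 7-mer lay lower than genes without it. Of 11056 genes that had an annotated 3′ UTR and a base mean of 100 or more, 994 held at least 1 copy. Of those 994 genes 10.6% were lower after siMYBL1, against 2.08% of the 10062 genes with no copy, and the median log2 fold change was -0.11 against 0.03. Read from the other side, 105 of 314 lower genes (33.4%) held the 7-mer, compared with 19 of 447 higher genes (4.25%) and 870 of 10295 genes that were not called (8.45%). Among the 50 lower genes with the smallest p-values, 27 held it. Genes in which an A followed the 7-mer (397 genes) had a median of -0.14 and 11.8% of them were lower. The 129 genes with 2 or more copies had a median of -0.08, and the 865 with 1 copy -0.11. Lower, higher and uncalled genes had median 3′ UTR lengths of 1402, 1564 and 1159 bases.

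In U2OS the same 7-mer again ranked 1 of the 16384, counted from the lowest coefficient over standard error. Its coefficient was -0.21 on the log2 scale over 11056 genes. In U2OS cells given siMYBL2, a comparison that shares the siCtrl libraries, it ranked 9426 with a coefficient of 0.01, and in the double knockdown, which shares them too, it ranked 1 with -0.15. In that siMYBL2 comparison the genes with and without a copy had medians of 0.03 and 0.00. The reverse complement of the 7-mer, UAAGUUC, is the seed (bases 2 to 8) of none of 2545 mature human miRNAs in RefSeq. MYBL1 has 2 copies in its transcript of 5192 bases, both outside the 3′ UTR. The sequences of the siRNAs were not given in the sources used here, so the part of a guide strand's seed in these falls was not tested.

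**Figure D2:**
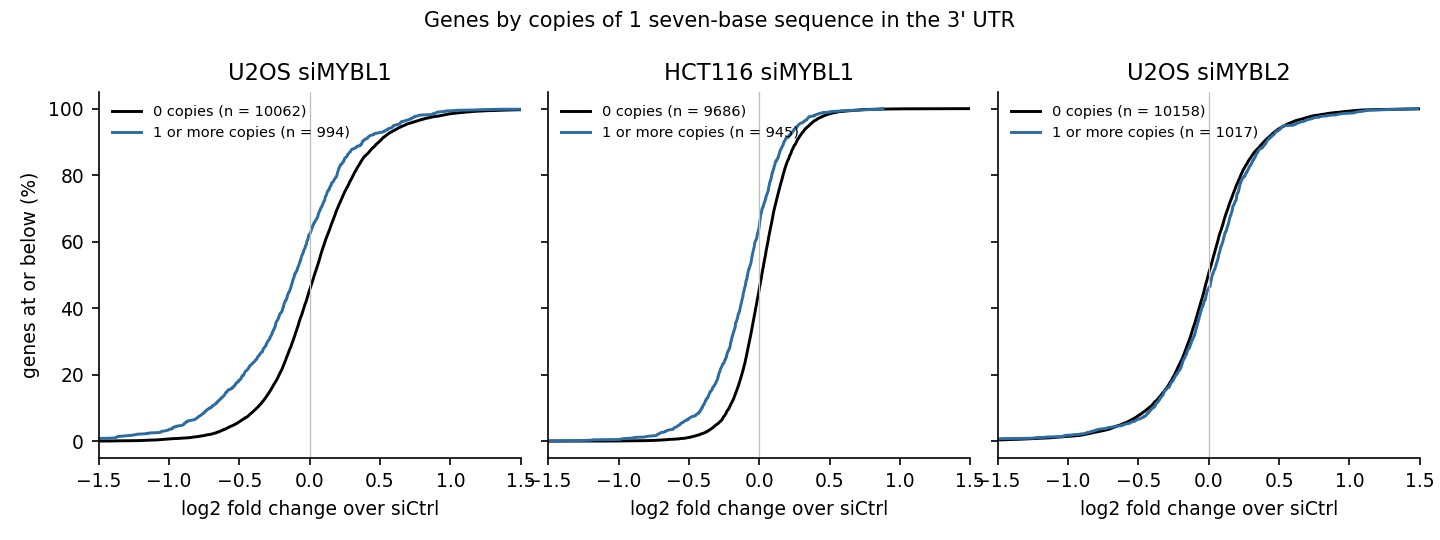
Cumulative share of genes (y axis, %) at or below a log2 fold change over siCtrl (x axis) for genes with no copy (black) and with 1 or more copies (blue) of the 7-mer in the 3′ UTR, in 3 of the authors' deposited tables, for genes whose base mean reached 100. The blue curve lies to the left of the black one after siMYBL1 in U2OS (medians -0.11 and 0.03) and in HCT116 (-0.08 and 0.02), and close to it after siMYBL2 in U2OS (0.03 and 0.00).

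Of the other 8 genes named for a fall, 3 held the 7-mer. ENPP4, an ectoenzyme of nucleotide metabolism (-1.98, SE 0.30), ZNF80, a zinc finger protein (-1.76, SE 0.37), and MAP2K6, a kinase that activates p38 (-1.72, SE 0.45), each had 1 copy, going by deposited log2 fold changes. No copy was found in IFIT1, an interferon-induced gene (-1.70, SE 0.35), MYOCD and ODC1. For ODC1 the authors' deposited table gave a log2 fold change of -1.13 (SE 0.17, adjusted p = 2.82e-08), an implied 3595 normalized counts in siCtrl against 1644 in siMYBL1. ODC1 is the rate-limiting enzyme of polyamine synthesis. MYOCD, a smooth muscle coactivator, had a deposited log2 fold change of -1.57 (SE 0.38, adjusted p = 0.00220). The lncRNA ENSG00000289091 (-1.69, SE 0.21) and ENSG00000272916 (-1.62, SE 0.36) also fell and were not searched.

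The falls were compared with those in HCT116, whose libraries are separate. In HCT116 45 of 17323 genes were called (0.26%; 20 higher, 0.115%, and 25 lower, 0.144%), with a median SE of 0.19 against 0.22 in U2OS for genes whose base mean reached 100. There were 19 genes called in both lines, 17 lower in both and 2 higher in both (MYC and COTL1, the latter outside the naming rule and picked after its values were seen). Of the 17 lower ones 13 held the 7-mer. The other 4 included MYBL1, ODC1 and MBTPS2, the last picked after its values were seen. All 17 were called lower in HCT116, where the 7-mer was chosen, so that count is no separate check of the 7-mer. In HCT116 15 of the 22 lower genes that had an annotated 3′ UTR and a base mean of 100 or more held it, which is the table it was chosen in. Of the 317 genes lower in U2OS and listed in HCT116, 286 lay below 0 there, with a median of -0.29; of all genes listed in both, 49.3% did. Of the 449 higher ones 366 lay above 0 in HCT116, with a median of 0.22, against 50.7% of all genes.

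Genes of G2 and mitosis were often lower. In bulk RNA, fewer cells in a phase and less RNA per cell cannot be told apart. Of the 81 listed members, none was called higher and 33 (40.7%) lower, against 2.27% of all genes, and 78 lay below 0; the median was -0.49. Left without the 5 members that hold the 7-mer, 29 of 76 were lower and the median was again -0.49. The 4 lower members with it were LMNB1, OIP5, NCAPG and PIF1, the last picked after its values were seen. HMMR was lower after siMYBL1, at an implied 744 against 1536 normalized counts (deposited log2 fold change -1.05, SE 0.19, adjusted p = 4.69e-06). HMMR is a spindle-associated hyaluronan receptor. DEPDC1, at an implied 1938 normalized counts in siCtrl and 960.2 in siMYBL1, had a deposited log2 fold change of -1.01 (SE 0.19, adjusted p = 2.11e-05). AURKA lost normalized counts, from an implied 3023 to 1514 (deposited log2 fold change -1.0, SE 0.22, adjusted p = 0.000585). AURKA is the centrosomal kinase Aurora A. Implied CDC20 levels were 6558 normalized counts in siCtrl and 3699.6 in siMYBL1 (deposited log2 fold change -0.83, SE 0.18, adjusted p = 0.000336). CDC20 activates the anaphase-promoting complex. After siMYBL1, ECT2 stood at an implied 1308 normalized counts against 2319 in siCtrl (deposited log2 fold change -0.83, SE 0.17, adjusted p = 0.000233). ECT2 starts the contraction of the cleavage furrow. The implied PLK1 level fell from 3288 normalized counts in siCtrl to 2132 in siMYBL1 (deposited log2 fold change -0.62, SE 0.17, adjusted p = 0.00859). PLK1 is a kinase needed throughout mitosis.

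Several of the best-known members did not pass. CDK1, the kinase that drives entry into mitosis, had a deposited log2 fold change of -0.58 (SE 0.20, adjusted p = 0.0639). Its cyclin CCNB1 had -0.29 (SE 0.16, adjusted p = 0.334). TOP2A, which untangles DNA before anaphase, had -0.33 (SE 0.16, adjusted p = 0.265), and MKI67, the proliferation marker Ki-67, had -0.38 (SE 0.18, adjusted p = 0.243), again from the authors' deposited table. In HCT116 the list's median was -0.21, with 1 of 81 members lower, which was LMNB1. In the other U2OS tables, which share the siCtrl libraries, the list's median was -0.64 after siMYBL2, where 44 of 81 members were lower, and -2.03 in the double knockdown, where 79 of 81 were; there, 5.2% and 12.6% of all genes were called, 3.51% and 6.06% lower. PLK1 had -0.62 after siMYBL1, -0.82 after siMYBL2 and -4.07 in the double knockdown, and HMMR had -1.05, 0.06 and -2.86.

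Promoters of many G2/M genes carry the CHR element, TTTGAA, through which MuvB complexes bind. It was searched on both strands from 250 bases before to 50 bases after the gene's start in RefSeq promoters (GRCh38.p14). These 4 lower members show it, with the element in capitals and 30 bases on the gene's strand each.
HMMR, chr5:163460592-163460621, plus strand: aatgtggggagaTTTGAAtttgaaaccggt
PLK1, chr16:23678848-23678877, plus strand: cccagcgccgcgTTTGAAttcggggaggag
NCAPG, chr4:17810932-17810961, plus strand: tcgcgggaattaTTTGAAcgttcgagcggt
ECT2, chr3:172750599-172750628, plus strand: tcgttgggcttaTTTGAAacacacgcacaa
The element was found in 49 of 70 members with a promoter in RefSeq (70.0%) and in 15.4% of all 27305 promoters. It was found in 20 of 29 lower members (69.0%) and in 29 of 41 not called (70.7%). HMMR has a second copy 6 bases after the first, printed in lower case.

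Genes of DNA replication were lower in part. Of 75 listed G1/S targets of E2F, 13 (17.3%, against 2.27% of all genes) were lower and none higher. Of the list 72 lay below 0, and the median was -0.39 in U2OS and -0.06 in HCT116. After siMYBL2, with the shared siCtrl libraries, the median was -0.12, with 5 of 75 lower (3.51% of all genes) and 1 higher (1.69%). In the double knockdown, which shares them too, it was -0.12, with 10 of 75 lower (6.06% of all genes) and none higher. ATAD2 fell from an implied 5833 to 2802 normalized counts, at a log2 fold change of -1.06 in the authors' deposited table (SE 0.17, adjusted p = 1.77e-07). ATAD2 is a chromatin ATPase and E2F cofactor. For MCM6 the authors' deposited table gave a log2 fold change of -0.79 (SE 0.17, adjusted p = 0.000419), an implied 2629.9 normalized counts in siCtrl against 1520.2 in siMYBL1. RRM2 was lower after siMYBL1, at an implied 2839 against 4733 normalized counts (deposited log2 fold change -0.74, SE 0.17, adjusted p = 0.000908). MCM6 is a subunit of the replicative helicase and RRM2 one of ribonucleotide reductase. E2F1 itself was lower, with a deposited log2 fold change of -0.68 (SE 0.19, adjusted p = 0.0106), as was E2F2 at -0.93 (SE 0.23, adjusted p = 0.00363). TYMS (-0.18), TK1 (-0.24) and MCM4 (-0.19), which make nucleotides or unwind DNA, were not called.

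Histone genes could be read only in part. Of 62 replication-dependent histone genes 27 were listed. Of these 2 were higher (7.41%, against 3.44% of all genes) and none lower. They were H2BC12, at a deposited 0.62 (SE 0.15, adjusted p = 0.00272), and H2AC19. H2AC19 has a near-identical copy, H2AC18, at 0.30 (SE 0.22), and its own deposited log2 fold change of 23.52 (SE 4.79) rests on a control level close to 0, so no fold is given for it. The median of the list was -0.02.

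**Figure D3:**
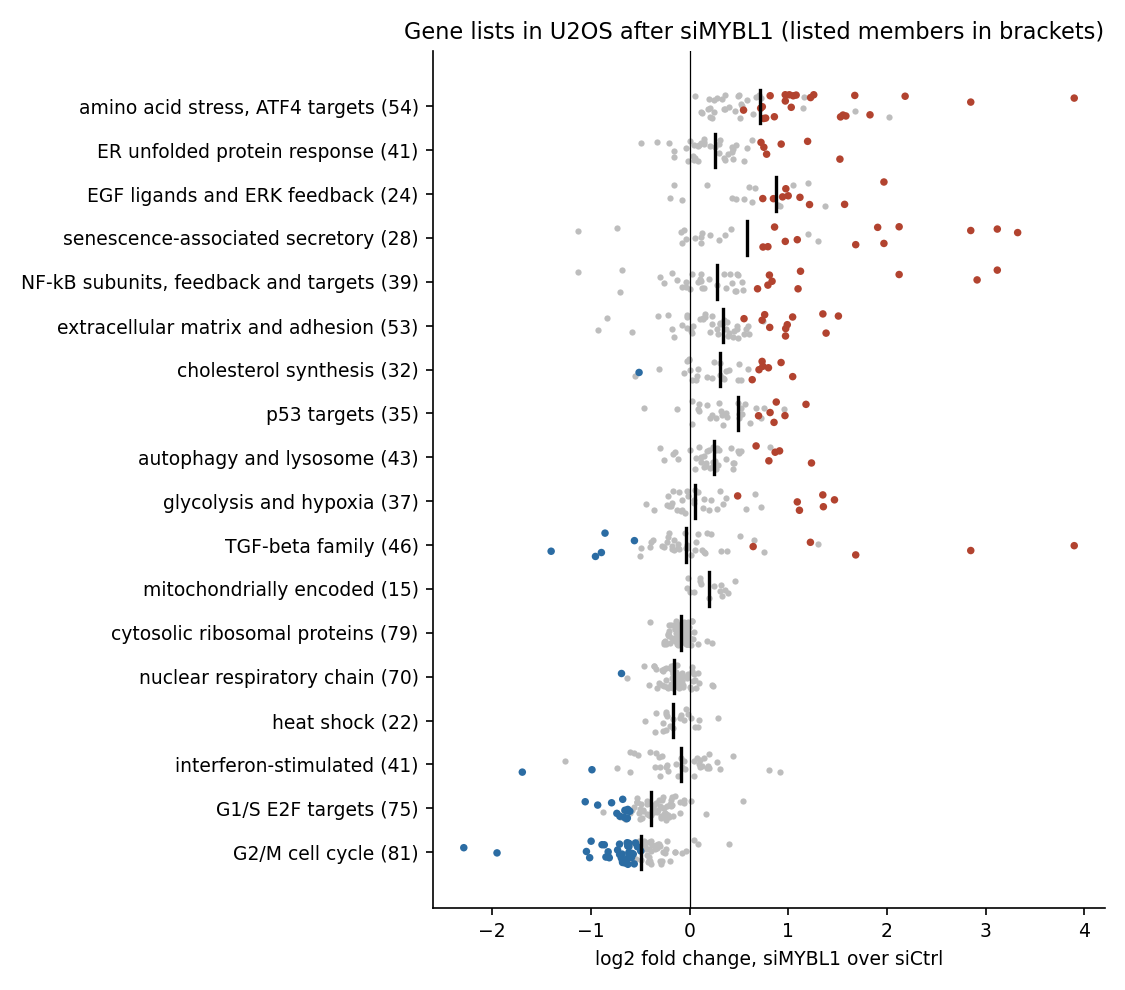
Log2 fold change of siMYBL1 over siCtrl in U2OS (x axis) for the listed members of 18 gene lists, 1 point per gene with random vertical spread, from the authors' deposited table; red and blue points were called higher and lower, grey points were not called, and black bars are medians. The median is 0.71 for the amino acid stress list, 0.87 for the EGF list, -0.39 for G1/S and -0.49 for G2/M.

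Genes of the amino acid stress response were often higher. This response acts through ATF4, a factor made when translation slows under stress, which switches on amino acid synthesis, uptake and tRNA charging. All 54 listed members lay above 0, and 23 (42.6%) were higher and none lower, against 3.44% and 2.27% of all genes. The median was 0.71. INHBE, 1 of the 23, and FGF21, which was not called (2.02, SE 0.73), were listed only through their level in siMYBL1. FGF21 was picked after its values were seen. A further 2 members were not listed, so these counts cover only the members listed. CHAC1, at an implied 136 normalized counts in siCtrl and 484 in siMYBL1, had a deposited log2 fold change of 1.83 (SE 0.37, adjusted p = 8.70e-05). CHAC1 breaks down glutathione. DDIT4 gained normalized counts, from an implied 691 to 2202 (deposited log2 fold change 1.67, SE 0.25, adjusted p = 1.57e-08). Implied SESN2 levels were 497 normalized counts in siCtrl and 1459 in siMYBL1 (deposited log2 fold change 1.55, SE 0.27, adjusted p = 2.66e-06). DDIT4 and SESN2 restrain the growth kinase mTORC1. After siMYBL1, NUPR1 stood at an implied 2030.5 normalized counts against 678 in siCtrl (deposited log2 fold change 1.58, SE 0.21, adjusted p = 4.89e-11). NUPR1 is a stress-induced chromatin protein. The implied ASNS level rose from 1393 normalized counts in siCtrl to 3331 in siMYBL1 (deposited log2 fold change 1.26, SE 0.26, adjusted p = 0.000120). ASNS makes asparagine. DDIT3 rose from an implied 149.6 to 432 normalized counts, at a log2 fold change of 1.53 in the authors' deposited table (SE 0.32, adjusted p = 0.000263). DDIT3 is the stress factor CHOP. For SLC7A11 the authors' deposited table gave a log2 fold change of 1.23 (SE 0.27, adjusted p = 0.000466), an implied 499 normalized counts in siCtrl against 1167 in siMYBL1. SLC1A5 was higher after siMYBL1, at an implied 5773 against 2732 normalized counts (deposited log2 fold change 1.08, SE 0.21, adjusted p = 3.06e-05). SLC7A11 brings in cystine and SLC1A5 glutamine.

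ATF4 itself, which is controlled mostly at translation, had a deposited log2 fold change of 0.35 (SE 0.17, adjusted p = 0.254). The tRNA synthetases MARS1, CARS1, SARS1 and GARS1 were higher by 0.74 to 0.86, and IARS1 was not called at 0.50 (SE 0.20, adjusted p = 0.118); the first 4 were picked after their values were seen. PHGDH, the first enzyme of serine synthesis, had 0.11 (SE 0.19) and PYCR1, which makes proline, 0.33 (SE 0.17), neither of them called in the authors' deposited table.

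The largest rises of the list came with large errors. INHBE, an activin subunit, had a deposited log2 fold change of 3.90 with an SE of 1.1, where the 200 genes nearest in base mean had a median SE of 0.34. GDF15, a stress hormone, had 2.85 with an SE of 0.77 against 0.24, and TRIB3, a pseudokinase that feeds back on ATF4, had 2.18 with 0.66 against 0.20. The SE of the list's called members lay at the 96.5th percentile of genes of like level in the median, and that of all 508 higher and 335 lower genes at the 76th and 58th. Called members of several other lists lay high as well, at percentile 98.5 for keratins, 96 for AP-1, 94.3 for the ER list and 90 for the EGF list. Matrix genes lay at 88, glycolysis at 87.3 and secreted factors at 86. Percentiles were lower in others, at 66 for NF-κB, 63.5 for cholesterol synthesis, 61.5 for autophagy, 55 for G2/M and 33 for G1/S. The implied siCtrl level of INHBE was under the lowest base mean listed. In such a fit the SE grows with the spread between the 2 libraries of a group; which library stands apart in these genes, and its part in the result, was not tested.

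The other comparisons gave these values for the list. The list's median was 0.13 in HCT116 (50 members), and in the U2OS tables that share the siCtrl libraries it was -0.17 after siMYBL2 (2 of 52 higher, against 1.69% of all genes, and 5 lower) and 0.19 in the double knockdown (8 of 53 higher, against 6.55%, and 2 lower). ASNS had 1.26 after siMYBL1, -0.35 after siMYBL2 and 0.01 in the double knockdown, and CHAC1 had 1.83, -0.70 and 0.24. INHBE was at 3.90 after siMYBL1 and -0.16 in the double knockdown. SESN2 had the same value in both, 1.55 and 1.55. In HCT116 no member of the list was called. Of the members described above, CHAC1 had -0.75 there, DDIT4 -0.45 and NUPR1 1.91. SESN2, ASNS, DDIT3, SLC7A11 and SLC1A5 lay between 0.09 and 0.38 there.

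**Figure D4:**
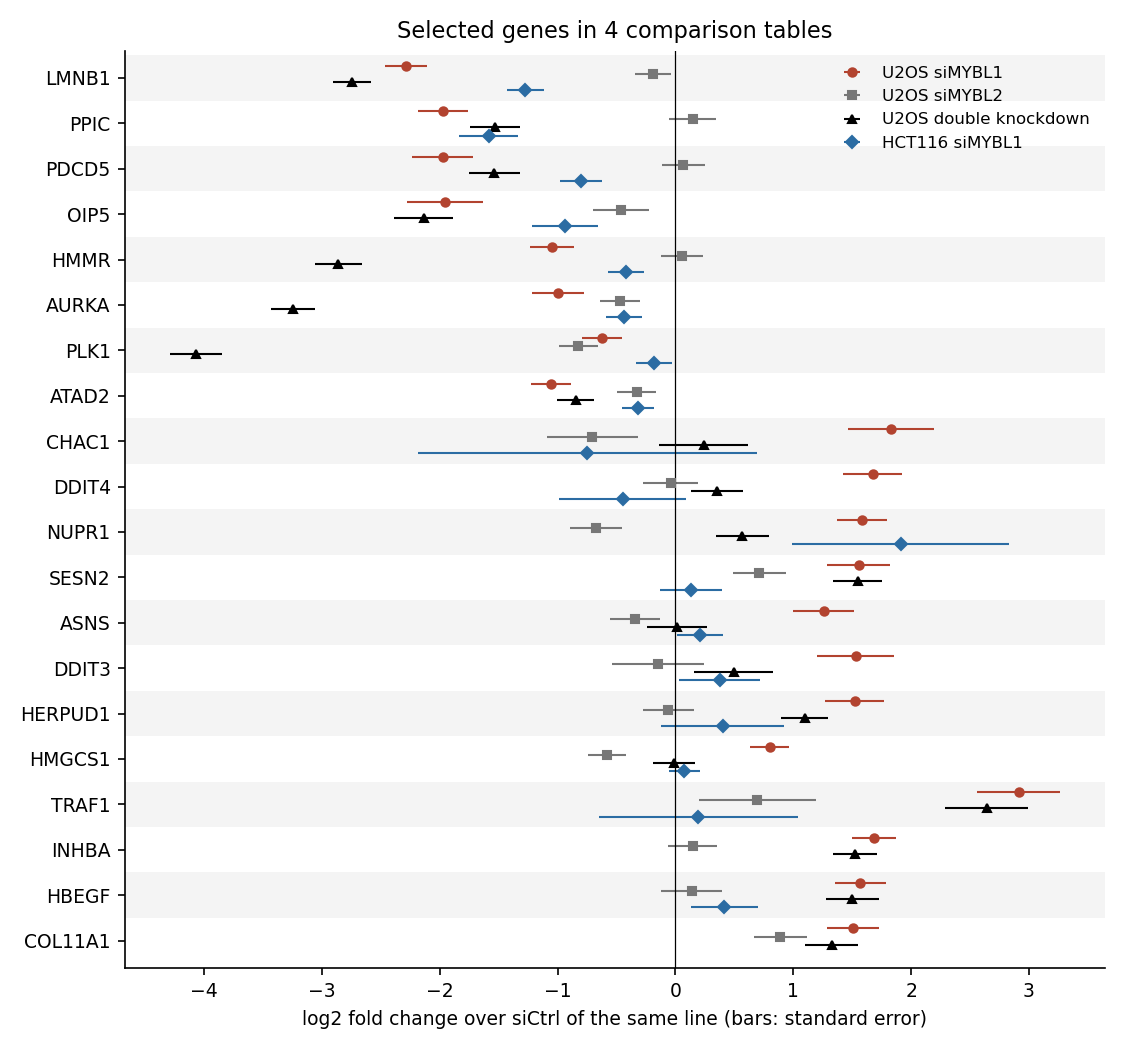
Log2 fold change over the siCtrl of the same line (x axis, bars are standard errors) for 20 genes in 4 of the authors' deposited tables: siMYBL1 (red), siMYBL2 (grey) and double knockdown (black) in U2OS, which share siCtrl libraries, and siMYBL1 in HCT116 (blue). ASNS stands at 1.26 after siMYBL1 and 0.01 in the double knockdown, PLK1 at -0.62 and -4.07, and TRAF1 at 2.91 and 2.64.

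The composite C/EBP-ATF element of ATF4 targets, TGATGNAA, was searched in the same promoter windows on both strands. Of the 5 called members that hold it, 4 are shown, with the element in capitals on the strand of the gene; in CHAC1, CARS1 and MARS1 it lies on the opposite strand and so appears as its reverse complement.
CHAC1, chr15:40953251-40953280, plus strand: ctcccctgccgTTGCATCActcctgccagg
ASNS, chr7:97872458-97872487, minus strand: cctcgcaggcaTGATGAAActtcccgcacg
CARS1, chr11:3057407-3057436, minus strand: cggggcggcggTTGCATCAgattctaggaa
MARS1, chr12:57488053-57488082, plus strand: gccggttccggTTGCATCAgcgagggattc
It was found in 13 of 44 members with a promoter (29.5%) and in 3.67% of all 27305 promoters. Called members held it in 5 of 20 cases (25.0%) and members not called in 8 of 24 (33.3%).

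Of 41 genes of the endoplasmic reticulum (ER) unfolded protein response 6 were higher (14.6%, against 3.44% of all genes) and none lower, and the median was 0.26. HERPUD1, at an implied 754 normalized counts in siCtrl and 2165 in siMYBL1, had a deposited log2 fold change of 1.52 (SE 0.25, adjusted p = 5.34e-07). HERPUD1 takes part in the disposal of misfolded ER proteins. XBP1, a transcription factor of the response, was higher at a deposited 0.75 (SE 0.22, adjusted p = 0.0170), and DNAJB9, a cochaperone, at 1.20 (SE 0.34, adjusted p = 0.0120). The main ER chaperones were not called: HSPA5 (BiP) had -0.16 (SE 0.15), HSP90B1 0.21 (SE 0.15) and CALR 0.05 (SE 0.15) in the authors' deposited table. None of 22 heat shock genes was called by DESeq2; 3 had an unadjusted p under 0.05, all below 0. Of 23 targets of NRF2, the oxidative stress factor, 4 were higher (17.4%). HMOX1 gained normalized counts, from an implied 1001 to 2099 (deposited log2 fold change 1.07, SE 0.20, adjusted p = 1.09e-05). HMOX1 breaks down heme. TXNRD1, thioredoxin reductase, was higher at 0.87 (SE 0.22, adjusted p = 0.00341). Autophagy and lysosome genes were higher in 5 of 43 cases (11.6%), among them WIPI1 at 1.23 (SE 0.22, adjusted p = 5.01e-06), which helps form autophagosomes.

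Of 32 listed cholesterol synthesis genes 7 (21.9%, against 3.44% of all genes) were higher and 1 lower, with a median of 0.31 in U2OS and 0.05 in HCT116. Implied HMGCS1 levels were 7878 normalized counts in siCtrl and 13702 in siMYBL1 (deposited log2 fold change 0.80, SE 0.16, adjusted p = 0.000114). HMGCS1 catalyses an early step. After siMYBL1, MSMO1 stood at an implied 2717 normalized counts against 1317 in siCtrl (deposited log2 fold change 1.04, SE 0.19, adjusted p = 7.58e-06). MSMO1 acts late in the pathway. The lower member was ACLY, which supplies acetyl-CoA, at -0.51 (SE 0.17, adjusted p = 0.0387). FASN (0.18), SCD (0.37) and FADS2 (0.00), which make or desaturate fatty acids, were not called in the authors' deposited table. After siMYBL2, with the shared siCtrl libraries, the list's median was -0.29, with 7 of 32 members lower, against 3.51% of all genes, and none higher. In the double knockdown, which shares them too, the median was -0.05. There 2 of 32 members were higher and 5 lower, against 6.55% and 6.06% of all genes.

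Of 24 listed ligands of the EGF receptor and genes of its ERK feedback, 9 (37.5%, against 3.44% of all genes) were higher and none lower, and the median was 0.87 in U2OS and 0.24 in HCT116. The implied HBEGF level rose from 304 normalized counts in siCtrl to 902 in siMYBL1 (deposited log2 fold change 1.57, SE 0.22, adjusted p = 4.06e-10). HBEGF and AREG are ligands of the receptor. AREG rose from an implied 22.3 to 87.2 normalized counts, at a log2 fold change of 1.97 in the authors' deposited table (SE 0.52, adjusted p = 0.00707). AREG was listed only through its level in siMYBL1. EGFR, the receptor itself, was higher at a deposited 1.0 (SE 0.31, adjusted p = 0.0300). ETV5, a transcription factor downstream of ERK, was at 1.12 (SE 0.28, adjusted p = 0.00346) and the receptor's inhibitor ERRFI1 at 0.94 (SE 0.23, adjusted p = 0.00324). Of 26 AP-1 and immediate early genes 4 (15.4%) were higher, FOSL1, MAFF, BTG1 and MYC. For MYC the authors' deposited table gave a log2 fold change of 0.93 (SE 0.23, adjusted p = 0.00346), an implied 1895 normalized counts in siCtrl against 3615 in siMYBL1. MYC was also higher in HCT116, at a log2 fold change of 0.61. FOS had -0.55 with an SE of 1.19, where genes of its level had a median SE of 0.16, and JUN had -0.24 (SE 0.23) in the authors' deposited table.

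Among secreted factors of senescent cells 12 of 28 listed genes (42.9%) were higher, and among subunits, feedback genes and targets of NF-κB, a factor of inflammation, 9 of 39 (23.1%), against 3.44% of all genes; none was lower in either list, with medians of 0.58 and 0.27. The called members of both include CCL20, LIF and CXCL8. Of the 12 and 9 higher members 4 and 2 had an implied siCtrl level under the lowest base mean listed and so had to differ to be listed, MMP3, CCL20, AREG and CXCL8 in the first list and CCL20 and CXCL8 in the other, while 16 and 12 members were not listed. These counts therefore cover only the members listed. INHBA was higher after siMYBL1, at an implied 3269.7 against 1018 normalized counts (deposited log2 fold change 1.68, SE 0.19, adjusted p = 7.91e-16). INHBA, which makes activin A, had the smallest adjusted p among the higher secreted factors named. TRAF1, at an implied 50.8 normalized counts in siCtrl and 382 in siMYBL1, had a deposited log2 fold change of 2.91 (SE 0.35, adjusted p = 3.68e-13). TRAF1 is an adaptor of TNF receptors. MMP3 gained normalized counts, from an implied 11.8 to 118 (deposited log2 fold change 3.32, SE 0.59, adjusted p = 5.87e-06). Implied CCL20 levels were 8.36 normalized counts in siCtrl and 72.5 in siMYBL1 (deposited log2 fold change 3.12, SE 0.68, adjusted p = 0.000392). MMP3 is a matrix protease and CCL20 a chemokine. After siMYBL1, IGFBP7 stood at an implied 529 normalized counts against 141 in siCtrl (deposited log2 fold change 1.91, SE 0.34, adjusted p = 5.36e-06). IGFBP7 is a secreted binding protein. The NF-κB subunit NFKB2 was at a deposited 0.69 (SE 0.17, adjusted p = 0.00354) and the inhibitor NFKBIE at 1.1 (SE 0.25, adjusted p = 0.000751), while RELA was not called at 0.12 (SE 0.21). TIMP1 (-0.04) and TIMP2 (-0.08), inhibitors of matrix proteases, were not called in the authors' deposited table. Of 41 interferon-stimulated genes none was higher and 2 were lower (4.88%, against 2.27% of all genes), IFIT1 at -1.70 (SE 0.35, adjusted p = 0.000149) and USP18 at -0.99 (SE 0.33, adjusted p = 0.0488).

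Matrix and adhesion genes were higher in 11 of 53 cases (20.8%, against 3.44% of all genes), with none lower and a median of 0.33. The implied COL11A1 level rose from 695 normalized counts in siCtrl to 1976 in siMYBL1 (deposited log2 fold change 1.51, SE 0.22, adjusted p = 4.98e-09). COL6A3 rose from an implied 1704 to 4344 normalized counts, at a log2 fold change of 1.35 in the authors' deposited table (SE 0.22, adjusted p = 2.54e-07). For COL1A1 the authors' deposited table gave a log2 fold change of 0.73 (SE 0.16, adjusted p = 0.000514), an implied 20009 normalized counts in siCtrl against 33293 in siMYBL1. These are chains of collagens XI, VI and I. ITGB3, an integrin subunit, was higher at a deposited 1.38 (SE 0.31, adjusted p = 0.000741), and THBS1, a matrix glycoprotein, at 0.97 (SE 0.22, adjusted p = 0.000598). FN1 (0.60, SE 0.21), SPARC (0.14, SE 0.15) and ITGB1 (0.29, SE 0.16) were not called in the authors' deposited table.

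The TGF-β family was split, with 5 of 46 listed members higher and 5 lower (10.9% each, against 3.44% and 2.27% of all genes) and a median of -0.04. Ligands went both ways: INHBE, INHBA and GDF15 were higher, as above, while TGFB2 and BMP4 were lower. TGFB2 was lower after siMYBL1, at an implied 974 against 1809 normalized counts (deposited log2 fold change -0.89, SE 0.18, adjusted p = 0.000138). BMP4, at an implied 3319.7 normalized counts in siCtrl and 1832 in siMYBL1, had a deposited log2 fold change of -0.86 (SE 0.19, adjusted p = 0.000394). Receptors were split too. TGFBR2 gained normalized counts, from an implied 1671 to 3901 (deposited log2 fold change 1.22, SE 0.19, adjusted p = 2.98e-08). Implied TGFBR3 levels were 237 normalized counts in siCtrl and 89.7 in siMYBL1 (deposited log2 fold change -1.40, SE 0.33, adjusted p = 0.00130). TGFBR2 is the type II signalling receptor and TGFBR3 a coreceptor. SMAD6, an inhibitor of BMP signalling, was lower at a deposited -0.95 (SE 0.24, adjusted p = 0.00354), and the BMP target ID1 was not called at -0.16 (SE 0.21). In the authors' deposited table LTBP1, which stores latent TGF-β in the matrix, was lower at -0.56 (SE 0.18, adjusted p = 0.0417) and its relative LTBP2 higher at 0.64 (SE 0.17, adjusted p = 0.00541).

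Targets of SRF and YAP and genes of the actin cytoskeleton were higher in 4 of 32 cases (12.5%) and lower in 2 (6.25%), TAGLN2 and TGFB2, against 3.44% and 2.27% of all genes. TAGLN2 holds the 7-mer, and of the 27 members without it 4 were higher and 1 lower. CNN1, ACTA2, TAGLN and FHL2 were the higher ones, with deposited log2 fold changes from 0.89 to 1.51, while the cytoskeletal actins ACTB (-0.18) and ACTG1 (-0.23) were not called. Of 15 keratin-type genes listed, 3 (20%) were higher. After siMYBL1, KRTAP2-3 stood at an implied 1461 normalized counts against 282 in siCtrl (deposited log2 fold change 2.37, SE 0.25, adjusted p = 8.90e-18). The implied KRT17 level rose from 6233 normalized counts in siCtrl to 12289.7 in siMYBL1 (deposited log2 fold change 0.98, SE 0.24, adjusted p = 0.00204). KRTAP2-3 has near-identical neighbours in its family, so its reads may be shared with them. KRT34 was at 2.65 (SE 0.45), whereas KRT8 (-0.48) and KRT18 (-0.51), the keratins of simple epithelia, were not called in the authors' deposited table.

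Targets of p53, the DNA damage factor, were higher in 6 of 35 cases (17.1%, against 3.44% of all genes), with none lower and a median of 0.49. GADD45A rose from an implied 779 to 1764 normalized counts, at a log2 fold change of 1.18 in the authors' deposited table (SE 0.23, adjusted p = 6.89e-05). GADD45A is a stress sensor that slows the cell cycle. TNFRSF10B, a death receptor, was at a deposited 0.88 (SE 0.23, adjusted p = 0.00541) and PLK3 at 0.97 (SE 0.25, adjusted p = 0.00598). CDKN1A, the cell cycle inhibitor p21, had 0.96 with an SE of 0.57 (adjusted p = 0.414), where genes of its level had a median SE of 0.17. MDM2, which degrades p53, had 0.23 (SE 0.23, adjusted p = 0.724) and BAX 0.38 (SE 0.20, adjusted p = 0.319), again from the authors' deposited table.

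Of 37 glycolysis and hypoxia genes 6 (16.2%, against 3.44% of all genes) were higher and none lower. The median was 0.06, with 21 members above 0 and 16 below. For HK2 the authors' deposited table gave a log2 fold change of 1.47 (SE 0.32, adjusted p = 0.000563), an implied 167 normalized counts in siCtrl against 463 in siMYBL1. SLC2A3 was higher after siMYBL1, at an implied 2178 against 1007 normalized counts (deposited log2 fold change 1.11, SE 0.20, adjusted p = 6.91e-06). HK2 is a hexokinase and SLC2A3 a glucose transporter. ALDOC, at an implied 244 normalized counts in siCtrl and 623 in siMYBL1, had a deposited log2 fold change of 1.35 (SE 0.24, adjusted p = 3.16e-06). ALDOC is an aldolase. VEGFA and the hypoxia factor EPAS1 were higher by a deposited 1.09 (SE 0.25) and 1.36 (SE 0.26). GAPDH (-0.23), ENO1 (-0.04) and PKM (-0.01) were not called in the authors' deposited table.

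None of 79 cytosolic ribosomal protein genes was called by DESeq2 and 1 had an unadjusted p under 0.05; their median was -0.09, and 71 of 79 lay below 0. Of 70 nuclear genes of the respiratory chain 1 was called, NDUFB5 at a deposited -0.69 (SE 0.21, adjusted p = 0.0209), with a median of -0.16 over the list. None of the 15 mitochondrially encoded genes was called by DESeq2, 2 had an unadjusted p under 0.05, and their median was 0.19. Ribosome biogenesis and MYC network genes had 4 higher (10%) and 3 lower members (7.5%) of 40, against 3.44% and 2.27% of all genes; NPM1, a nucleolar chaperone, was lower. NPM1 lost normalized counts, from an implied 31502 to 18645 (deposited log2 fold change -0.76, SE 0.16, adjusted p = 0.000340). Of 23 lamina and envelope genes LMNB1 alone was called, while LMNB2 (0.08, SE 0.16), LMNA (-0.05, SE 0.16) and the lamin B receptor LBR (0.42, SE 0.17) were not. Of 47 germline and meiosis genes 15 were listed and 1 called, the mismatch repair gene MLH3 at 0.93 (SE 0.30, adjusted p = 0.0409), again from the authors' deposited table. Of the lists with calls in 1 direction by DESeq2, some had members in the other direction with an unadjusted p under 0.05. Above 0 these numbered 1 for the G2/M list, 1 for the G1/S list and 5 for the lamina and envelope list. Below 0 they numbered 2 for the NF-κB list, 2 for the histone list, 4 for the germline list, 1 for the matrix list, 2 for the glycolysis list, 3 for the keratin list and 1 for the mesenchymal and bone list. There were 0 for the p53, MYB family, amino acid stress, ER, secretory, interferon, NRF2, autophagy, AP-1, EGF and respiratory chain lists.

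The response to siMYBL1 was compared between the lines gene by gene, as the U2OS minus the HCT116 log2 fold change over the root of the summed squared SEs. Of the 13472 genes listed in both, 8 differed at an adjusted p under 0.05 (0.0594%), 6 of them with U2OS above HCT116 (0.0445%) and 2 below (0.0148%). No member of the amino acid stress, EGF, cholesterol or G1/S lists, whose medians are given above for both lines, was among the 8. Of the G2/M list LMNB1 alone was. PDGFC, a growth factor of mesenchymal cells, was higher in U2OS at a deposited 1.97 (SE 0.26) and had -0.12 (SE 0.28) in HCT116; the difference of 2.09 (SE 0.38) had an adjusted p of 0.000375. CADM4, an adhesion molecule, had 1.24 (SE 0.15) and 0.17 (SE 0.16), and the receptor TGFBR2 had 1.22 (SE 0.19) and 0.10 (SE 0.17), in the 2 deposited tables. LMNB1 fell in both lines, and by more in U2OS (-2.29, SE 0.18) than in HCT116 (-1.27, SE 0.15); the difference was -1.02 (SE 0.23, adjusted p = 0.0294). SERPINB5, an epithelial serpin, SEL1L3 and the lipoprotein receptor LRP8 were the other 3 with U2OS above, at 1.84, 1.21 and 1.12 in U2OS and 0.15, 0.12 and 0.06 in HCT116. RSC1A1, outside the naming rule and picked after its values were seen, was the other gene below HCT116, at a deposited 0.30 (SE 0.43) in U2OS and 3.90 (SE 0.64) in HCT116. MYBL1 fell by 0.98 on the log2 scale in U2OS and by 1.67 in HCT116, a difference of 0.69 (SE 0.44) that did not pass the threshold.

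**Figure D5:**
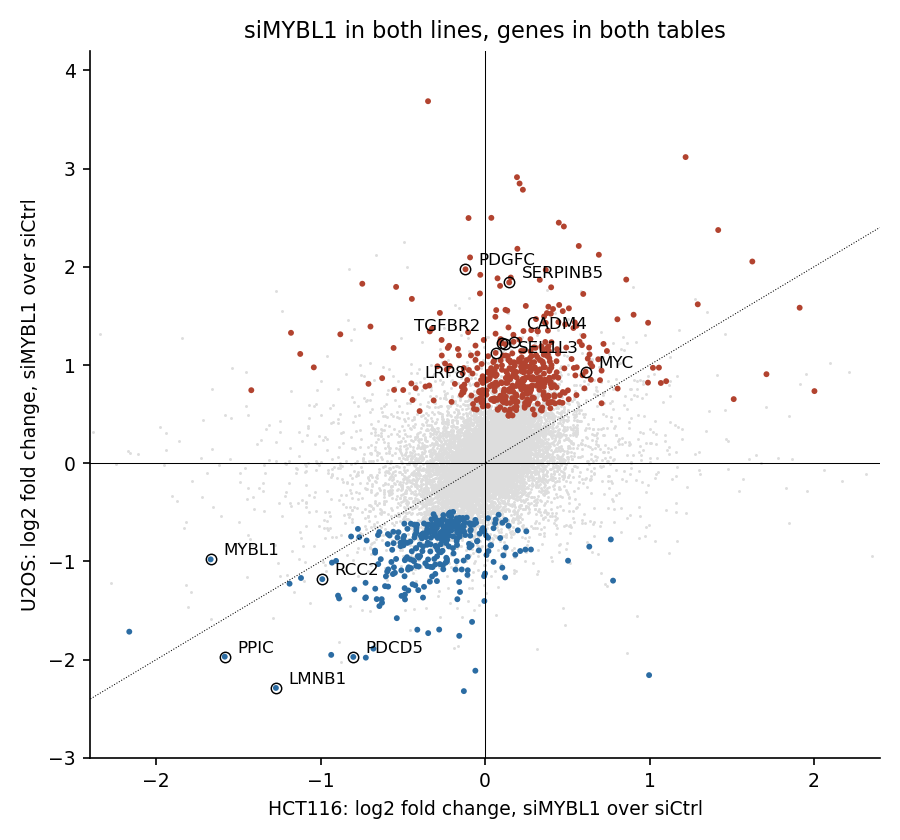
Log2 fold change of siMYBL1 over siCtrl in U2OS (y axis) and HCT116 (x axis) for genes in both of the authors' deposited tables; red and blue points were called higher and lower in U2OS, the dotted line marks equal change, and labelled genes are circled. Most blue points lie left of 0 and most red points right of it, nearer to 0 on the HCT116 axis; PDGFC stands at 1.97 in U2OS and -0.12 in HCT116, and RSC1A1, at 3.90 in HCT116, lies outside the axis.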

How the data were processed

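RNA of U2OS cells was sequenced in pairs of reads, per the labels, and the authors deposited tables of their comparisons rather than values per library. Cutadapt 4.4, Salmon 1.10.1 and DESeq2 1.40 are named, with hg38, in the submitters' processing notes; the sources used here give no settings, annotation or filters. Per the file headers, the base mean the authors deposited is a signal, an average of normalized counts; it was taken as that of the 4 libraries compared, which the header does not state. Fold changes and their standard errors were deposited on the log2 scale, and the Wald statistic, a score, is deposited as their ratio. The deposited p-value matched a 2-sided normal test of that statistic, and the authors' adjusted p-value its Benjamini-Hochberg adjustment over all listed genes.

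From the tables were computed implied group levels, the difference between the lines (normal test, Benjamini-Hochberg), list counts, and the presence of 7-mers in the 3′ UTR of the principal transcript (GENCODE release 29; least squares with log2 UTR length and GC content). Each SE was set beside those of the 200 genes nearest in base mean. The tables for U2OS siMYBL2 and the double knockdown share siCtrl libraries with this one, so only their own values are given. Scripts were tested on simulated data. No column held other samples. Alternatives were other centrings, thresholds, gene sets and UTRs.

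The comparison, the members and the 30 gene lists were chosen with earlier results of these data known. Named were MYB, MYBL1, MYBL2 and LMNB1; the 12 genes with the largest change and the 8 with the smallest adjusted p in each direction (base mean of at least 100); up to 8 called members per list and direction and up to 4 not called; 8 in each direction between lines; and a few cell cycle and stress genes. Not all of them are described, and a few genes are not reported here.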

Additional observations from a re-analysis of the deposited data

Results flagged for a closer look

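These 8 genes were flagged because their response to siMYBL1 differed between the lines by a test of the difference itself, U2OS minus HCT116 (Benjamini-Hochberg over 13472 genes, errors from the authors' deposited tables, 2 libraries a group). PDGFC differed by 2.09 on the log2 scale. SERPINB5 differed by 1.69, TGFBR2 by 1.12, SEL1L3 by 1.09, CADM4 by 1.06 and LRP8 by 1.06, all with U2OS above HCT116; their HCT116 log2 fold changes lay between -0.12 and 0.17 with PDGFC included. LMNB1 differed by -1.02 and was lower in both lines. RSC1A1 differed by -3.60 (SE 0.77, adjusted p = 0.0135): it had a deposited log2 fold change of 0.30 (SE 0.43) in U2OS and 3.90 (SE 0.64) in HCT116, with base means of 104 and 54.2. RSC1A1 is outside the naming rule and was picked after its values were seen; in the authors' deposited table its span lies inside that of DDI2 on the same strand, so reads of the 2 genes may not have been told apart.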

How the results depend on the processing

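The counts of genes called in U2OS stayed within 1.5 times of those reported under both centrings, under the adjustment over genes whose base mean reached 100 and without the 7-mer genes. The counts of genes that differed between the lines did so with both tables centred on their median and, except for 1 count given here, with base means of at least 100. Both moved further under the stricter tests. With an adjusted p under 0.01, 418 genes were called, 260 higher and 158 lower; tested against an absolute log2 fold change of 0.5 instead of 0, 53 were, 37 higher and 16 lower. Centring on genes whose base mean reached 1000 gave 434 higher and 387 lower. With the genes that hold the 7-mer left out, an alternative chosen after seeing the data, 487 were higher and 228 lower. Of the genes that differed between the lines, 1 lay below HCT116 when both base means had to reach 100, because RSC1A1 was not tested; at an adjusted p under 0.01 there was 1 in all, with U2OS above (PDGFC), and 0 below. Of 144 named genes called, 108 lost the call when tested against an absolute log2 fold change of 0.5 and 28 at an adjusted p under 0.01. MXD1 (1.53, adjusted p = 0.0535) and HK1 (0.47, adjusted p = 0.0629) missed the threshold after centring on all genes, and those 2 with FAS (0.66, adjusted p = 0.0536) and MLH3 (0.89, adjusted p = 0.0533) after centring on genes of high level; none changed direction. Reading the longest annotated 3′ UTR gave 114 lower genes with the 7-mer. No paired analysis was possible because the deposited tables hold no values per library; for the same reason leaving out each replicate was not run, and the depth of each library, which limits the genes of low level most, is unknown.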

Other observations

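Of the 843 genes called in U2OS after siMYBL1, 35 were annotated as lncRNAs in the authors' deposited table, 26 higher and 9 lower. That is 1.56% and 0.539% of the 1670 lncRNAs listed, against 3.44% and 2.27% of all genes. MIAT, a nuclear lncRNA, was lower by a deposited log2 fold change of -1.35 (SE 0.29, adjusted p = 0.000250, chr22:26646411-26676475), and MIR1915HG by -1.12 (SE 0.23, adjusted p = 0.000167). MYOSLID, a smooth muscle lncRNA that SRF drives, was higher at 1.34 (SE 0.32, adjusted p = 0.00149), and MIR222HG, the host transcript of a microRNA pair that targets CDKN1B, at 1.5 (SE 0.36, adjusted p = 0.00204). These 4 were chosen after their values were seen.

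Other higher genes code for proteins of the cell surface. IL21R, the interleukin 21 receptor, had a deposited log2 fold change of 3.69 (SE 1.0, adjusted p = 0.00883), with an implied siCtrl level of 19.6 normalized counts, under the lowest base mean listed. IL7R, the interleukin 7 receptor, had a deposited log2 fold change of 2.05 (SE 0.38, adjusted p = 1.20e-05) and 1.63 (SE 1.62) in HCT116. SEMA7A, a membrane-anchored guidance protein, had 1.72 (SE 0.21, adjusted p = 4.12e-13), and EMP1, an epithelial membrane protein, 1.62 (SE 0.19, adjusted p = 1.09e-13) against 1.29 (SE 0.86) in HCT116, in the authors' deposited tables.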
